A study of Rattus norvegicus with 6 samples.

Results

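The lysyl oxidase family of the rat comprises Lox, Loxl1, Loxl2, Loxl3 and Loxl4. Its members were taken as the rows of the count table that carry these gene symbols, and all 5 were found among 32883 rows with a gene name. All 5 also passed the filter on low counts, which left 13766 genes for testing. RNA came from the hearts of male Sprague–Dawley rats of the wild-type genotype, aged 8 weeks. In the ISO group, 3 rats received ISO under the skin at 1.5 mg/kg/day for 7 days, and in the saline group 3 rats received the same volume of saline. The labels give the agent only as ISO, taken to be isoproterenol, which activates beta-adrenergic receptors and is given to produce cardiac hypertrophy and fibrosis. The drug acts on the whole animal and the libraries are of bulk heart tissue, for which the labels name no chamber.

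Lysyl oxidases are secreted, copper-dependent amine oxidases. They convert lysine and hydroxylysine side chains of collagens and elastin into reactive aldehydes, which then condense into the covalent crosslinks that make fibrils stiff and resistant to digestion. Lox and Loxl1 carry a propeptide that is cleaved outside the cell, whereas Loxl2, Loxl3 and Loxl4 carry scavenger receptor cysteine-rich domains in its place. In the heart, fibroblasts are the main known source of these enzymes, and collagen crosslinking is known to accompany fibrosis.

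No family member passed the test of ISO against saline with all 6 libraries, but for Lox, Loxl1, Loxl2 and Loxl3 every ISO library lay above every saline library. Lox showed the widest difference, at 100.1 ± 112 CPM (counts scaled to library size, with TMM factors) in ISO hearts and 21.1 ± 4.65 CPM in saline hearts (SD, n = 3 each). Loxl4 stood at 4.36 ± 0.206 CPM in ISO hearts and 4.39 ± 0.288 CPM in saline hearts. The large values of Lox, Loxl1 and Loxl2 came from ISO replicate 3, whereas Loxl3 was at nearly the same level in the 3 ISO libraries. The count of members with no overlap and ISO above, 4 of 5, is read against 14.1% of all tested genes with that pattern. Under edgeR's quasi-likelihood test with a Benjamini-Hochberg adjusted p under 0.05, 0 of 5 members were called, where 1.47% of tested genes were called higher and 1.5% lower. Before adjustment, 4 of 5 members had an edgeR p under 0.05, against 22.9% of tested genes. DESeq2 called 3 members higher (Loxl1, Loxl2 and Loxl3; 5.46% of genes were called higher by DESeq2), and limma's voom called 0 (1.12% of genes). The thresholds of the series, a log2 fold change beyond 0.5 and p under 0.05 before adjustment, applied to the edgeR fit, took in 4 members as higher, where 8.67% of genes were. Without a filter on low counts edgeR called 1 member, Loxl1 (1.6% of genes called higher), and with the replicate number as a block it called 0 (0.109% of genes).

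**Figure D1:**
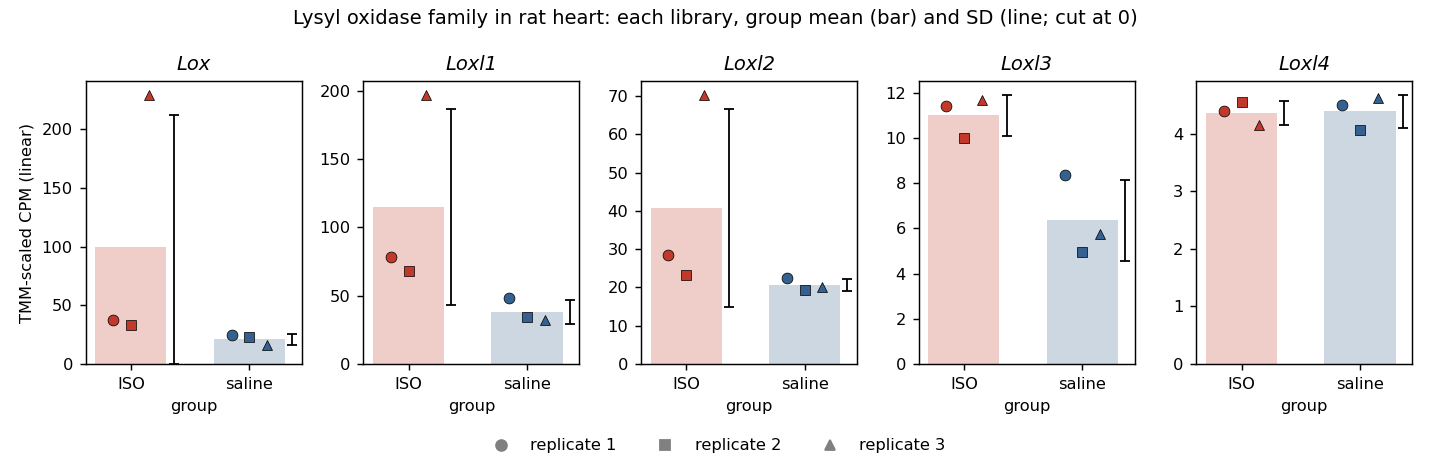
TMM-scaled CPM on linear axes from 0 for each family member, with ISO left of saline in each panel. Points are libraries, bars are group means and the vertical lines are SD over 3 libraries. In the ISO groups of Lox, Loxl1 and Loxl2 replicate 3 stands far above the others, in Loxl3 the 3 ISO libraries lie together above saline, and in Loxl4 the groups overlap.

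Promoter windows from RefSeq (build GRCr8, 250 bases before to 50 bases after the gene start, 5′ to 3′ on the gene's strand) were matched by symbol for 3 of the 5 members. These 3 are shown because a window was matched for them, whatever their values in ISO and saline. No window was matched for Lox and Loxl2, which are named only. A link between the windows and the values was not tested. Loxl1 lies on the minus strand at chr8:67612175-67612474, Loxl3 on the plus strand at chr4:117098108-117098407 and Loxl4 on the minus strand at chr1:251365528-251365827. Capitals mark letters that match a motif searched on both strands.
Loxl1: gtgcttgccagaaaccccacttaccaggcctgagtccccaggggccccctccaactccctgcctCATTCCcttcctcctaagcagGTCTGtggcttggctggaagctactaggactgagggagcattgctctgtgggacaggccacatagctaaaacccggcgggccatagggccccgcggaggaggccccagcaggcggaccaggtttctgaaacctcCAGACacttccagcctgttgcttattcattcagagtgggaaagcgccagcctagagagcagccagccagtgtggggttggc
Loxl3: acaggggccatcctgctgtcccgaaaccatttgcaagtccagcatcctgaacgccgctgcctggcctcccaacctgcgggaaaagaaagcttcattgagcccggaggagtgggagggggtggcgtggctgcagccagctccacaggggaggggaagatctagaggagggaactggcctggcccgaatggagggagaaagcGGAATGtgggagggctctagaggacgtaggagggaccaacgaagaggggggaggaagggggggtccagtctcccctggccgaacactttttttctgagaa
Loxl4: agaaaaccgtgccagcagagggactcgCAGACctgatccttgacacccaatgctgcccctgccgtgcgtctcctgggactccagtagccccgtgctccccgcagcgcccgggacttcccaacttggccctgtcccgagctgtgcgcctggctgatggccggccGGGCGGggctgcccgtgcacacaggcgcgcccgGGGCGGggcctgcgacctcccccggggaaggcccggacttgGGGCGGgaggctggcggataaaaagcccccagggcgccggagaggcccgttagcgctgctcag
The motifs searched were the TATA box (TATAAA), the GC box (GGGCGG), the SMAD box (CAGAC), the core of the hypoxia response element (ACGTG), the TEAD motif (GGAATG), the AP-1 motif (TGANTCA) and the CArG box of serum response factor. The Loxl1 window held 2 SMAD boxes, starting 165 and 31 bases before the gene start, and 1 TEAD motif starting 186 bases before it. The Loxl3 window held 1 TEAD motif starting 50 bases before the gene start. The Loxl4 window held 3 GC boxes, starting 87, 54 and 13 bases before the gene start, and 1 SMAD box starting 223 bases before it. None of these matches overlapped another. Among 33469 rat promoter windows of this length, 50.1% held a SMAD box, 14.2% a TEAD motif and 33.1% a GC box. These are shares of windows with at least 1 match, and shares with 2 or 3 matches were not computed. The matches are given as a description. The TATA box, the hypoxia core, the AP-1 motif and the CArG box had no match in the 3 windows, and 14.2%, 19.3%, 7.33% and 1.64% of all windows held them. GC content was 61.0% in the Loxl1 window, 61.3% in the Loxl3 window and 72.0% in the Loxl4 window.

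Lox, the founding member and the main collagen and elastin crosslinking enzyme of the family (ENSRNOG00000014426), stood at 37.3, 33.2 and 229.6 CPM in ISO replicates 1 to 3. Saline replicates 1 to 3 held 24.5, 22.95 and 15.8 CPM. ISO replicates 1 and 2 lay above the highest saline library, by 1.52-fold and 1.36-fold, whereas ISO replicate 3 lay 9.36-fold above it. The log2 fold change was 2.25 (SE 0.71, edgeR adjusted p = 0.114), with a 95% interval of 0.62 to 3.87. Only 0.508% of tested genes had a larger log2 fold change, while 11.1% had a smaller p. The SD was 112% of the mean in the ISO group, against 22.1% in the saline group. Without ISO replicate 3, the log2 fold change of Lox was 0.75 (SE 0.19, edgeR adjusted p = 0.0962), so the size of the Lox difference was set by 1 library. The counts behind these values were 596, 533 and 3935 in ISO and 360, 367 and 250 in saline.

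Loxl1, which in mice is needed to renew elastic fibres (ENSRNOG00000008680), stood at 78.2, 68.4 and 197 CPM in ISO replicates 1 to 3 and at 48.4, 34.3 and 31.9 CPM in saline replicates 1 to 3. All 3 ISO libraries lay above saline, and ISO replicate 3 was again the highest. ISO replicates 1 and 2 lay 1.62-fold and 1.41-fold above the highest saline library. Its log2 fold change was 1.59 (SE 0.39, edgeR adjusted p = 0.068), with a 95% interval of 0.69 to 2.49. Loxl1 was the member nearest to the threshold, and its call depended on which libraries and tool were used. It was called without ISO replicate 2 (1.85, edgeR adjusted p = 0.0364) and without ISO replicate 3 (0.94, edgeR adjusted p = 0.046), fits in which 3.5% and 1.23% of genes were called higher. DESeq2 also called it, at 1.58 (adjusted p = 0.0277). Without ISO replicate 1 it was not called, at 1.79 (edgeR adjusted p = 0.105), in a fit that called 0.0645% of genes higher. Without saline replicate 1, 2 or 3 the edgeR adjusted p ranged from 0.137 to 0.218, in fits that called 0.0996%, 0.0427% and 0.0497% of genes higher.

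Loxl2, which crosslinks fibrillar collagen and basement membrane collagen IV (ENSRNOG00000016758), stood at 28.5, 23.3 and 70.4 CPM in ISO replicates 1 to 3. Saline replicates 1 to 3 held 22.5, 19.3 and 20.15 CPM. ISO replicate 2 lay only 1.04-fold above the highest saline library, so the groups barely separated apart from ISO replicate 3. The log2 fold change was 0.98 (SE 0.38, edgeR adjusted p = 0.171; DESeq2 adjusted p = 0.047). Without ISO replicate 3 it was 0.33 (SE 0.15, edgeR adjusted p = 0.259). Loxl2 was even across the saline libraries, with an SD of 7.92% of the mean.

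Loxl3, a further scavenger receptor type member (ENSRNOG00000061373), had ISO values of 11.4, 9.98 and 11.7 CPM and saline values of 8.38, 4.94 and 5.75 CPM in replicates 1 to 3. Here the ISO libraries were the even ones, with an SD of 8.25% of the mean against 28.3% in saline, and ISO replicate 3 did not stand apart. The log2 fold change was 0.80 (SE 0.22, edgeR adjusted p = 0.0881), and DESeq2 called it at 0.79 (adjusted p = 0.028). Leaving out ISO replicate 3 gave 0.76 (SE 0.25, edgeR adjusted p = 0.157), close to the value with all libraries. The saline side moved it more, with 1.04 without saline replicate 1 and 0.64 without saline replicate 2, and neither fit called it (edgeR adjusted p = 0.0896 and 0.197). Total counts of Loxl3 were 542 in ISO and 293 in saline.

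Loxl4 (ENSRNOG00000015727), the member with the fewest reads, had 70, 73 and 71 counts in ISO replicates 1 to 3 and 66, 65 and 73 counts in saline replicates 1 to 3. Scaled, the ISO libraries stood at 4.39, 4.55 and 4.14 CPM. The saline libraries stood at 4.495, 4.06 and 4.61 CPM, and the groups overlapped. Its log2 fold change was −0.01 (SE 0.21, edgeR adjusted p = 0.984), with a 95% interval of −0.49 to 0.47. Counting error alone is 11.7% to 12.4% of a library's count at this depth, whereas the SD between libraries was 4.73% of the mean in ISO and 6.56% in saline. The sign of so small a value is not defined, and it was above 0 without scaling (0.10).

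**Figure D2:**
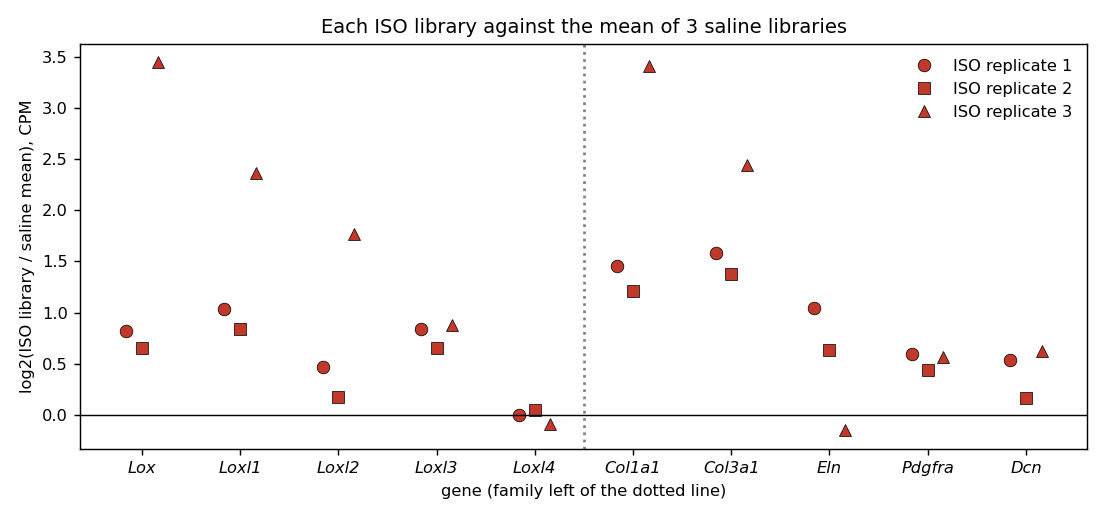
Log2 of each ISO library's CPM over the mean of the 3 saline libraries, for the family (left of the dotted line) and for selected collagen, elastin and fibroblast genes (right). Symbols are ISO replicates 1 to 3. ISO replicate 3 is far above the other ISO libraries for Lox (3.44 against 0.82 and 0.66) and Col1a1 (3.41 against 1.46 and 1.21). It is level with them for Loxl3 and Pdgfra, and below them for Eln. Pdgfra does not stand for all fibroblast markers. Among the ISO libraries, Lum was highest in ISO replicate 3, and Gsn and Col15a1 were lowest there.

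The spread of Lox, Loxl1 and Loxl2 within the ISO group was wide, and its order across members can be read from the ratios to saline. In ISO replicate 3 relative to the mean of saline, Lox was 10.9-fold, Loxl1 5.16-fold, Loxl2 3.41-fold, Loxl3 1.84-fold and Loxl4 0.944-fold. In ISO replicate 1 the same ratios ran from 0.999 for Loxl4 to 2.05 for Loxl1. In ISO replicate 2 they ran from 1.04 for Loxl4 to 1.79 for Loxl1. Lox thus had the highest ratio in ISO replicate 3, and Loxl1 had the highest in both other ISO libraries. Summed over the family, CPM were 160, 140 and 513 in ISO replicates 1 to 3 and 108, 85.6 and 78.2 in saline replicates 1 to 3.

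Reads of Lox made up 23.4%, 23.8% and 44.7% of the family's counts in ISO replicates 1 to 3, with Wilson 95% intervals of 21.8% to 25%, 22.1% to 25.6% and 43.7% to 45.8%. In saline replicates 1 to 3 they made up 22.6%, 26.8% and 20.2%, with intervals of 20.7% to 24.8%, 24.5% to 29.2% and 18.1% to 22.5%. In ISO replicates 1 and 2 the Lox share was thus inside the saline range, and in ISO replicate 3 it was above it. The Loxl2 share was lower in every ISO library, at 17.8%, 16.7% and 13.7%, against 20.8%, 22.6% and 25.8% in saline. The Loxl4 share was also lower in every ISO library, at 2.74%, 3.26% and 0.807%, against 4.15%, 4.75% and 5.90% in saline. A lower share is not a lower level here: mean CPM was 40.75 in ISO and 20.65 in saline for Loxl2, and 4.36 in ISO and 4.39 in saline for Loxl4. These shares are of reads and not per transcript length, for which no lengths were used, so they compare libraries and do not rank the genes. Intervals cover counting error only.

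Whether members differed from each other in response was tested on the log2 ratio of their CPM in each library, over 10 pairs. With 3 libraries against 3, the smallest two-sided exact permutation p is 0.1, so no pair could pass 0.05. In 6 pairs the ISO and saline ratios did not overlap, each with an exact p of 0.1 and a Benjamini-Hochberg adjusted p of 0.167. These were Lox over Loxl2, Loxl1 over Loxl2, and each of Lox, Loxl1, Loxl2 and Loxl3 over Loxl4. Loxl4 was nearly level across the libraries, so the ratios over it largely repeat the separation of each member's own levels. The pairs also share members, and how often other gene pairs separate was not computed. The steadiest of the 6 pairs was Loxl1 over Loxl2. Its log2 ratios were 1.46, 1.55 and 1.49 in ISO replicates 1 to 3, against 1.11, 0.83 and 0.66 in saline replicates 1 to 3. That is a difference of 0.63 with all libraries and of 0.64 without ISO replicate 3. The other 4 pairs overlapped, with an exact permutation p from 0.3 to 1. Among them, Lox over Loxl3 differed by 0.84 with all libraries and by −0.02 without ISO replicate 3. Lox over Loxl1 differed by 0.23 with all libraries and by −0.20 without ISO replicate 3.

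**Figure D3:**
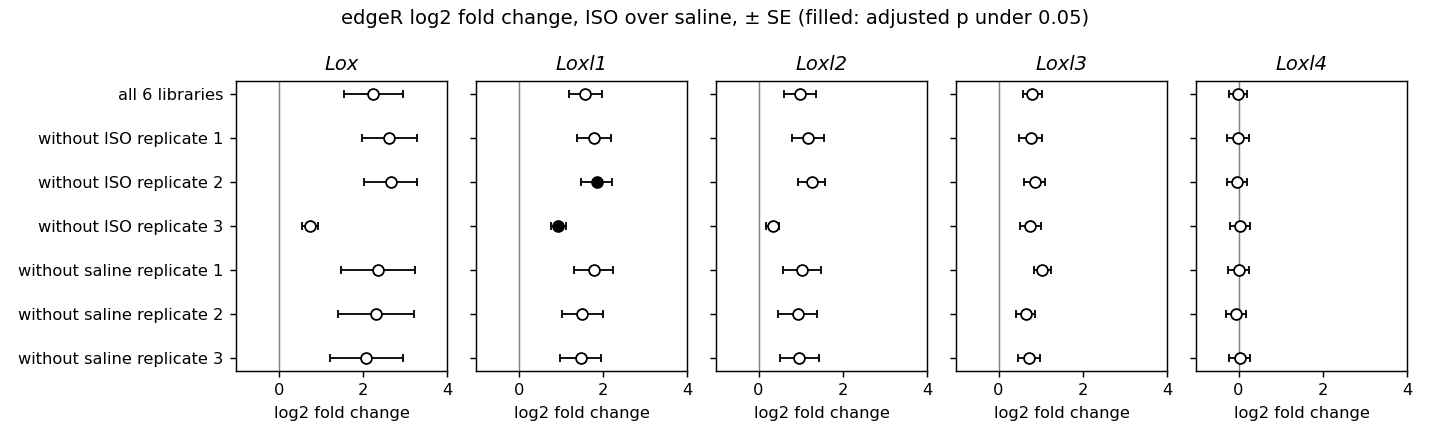
edgeR log2 fold change of ISO over saline with its standard error (horizontal line) for each member, with all 6 libraries and with each library left out. Filled points passed an adjusted p of 0.05, which Loxl1 did without ISO replicate 2 and without ISO replicate 3. Lox, Loxl1 and Loxl2 shrink without ISO replicate 3, while Loxl3 and Loxl4 stay near their value with all libraries.

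The genes whose library-by-library pattern was most like a member's were named by the root mean square difference of mean-centred log2 CPM over the 6 libraries, among tested genes of at least 5 CPM. A gene that varies little gets a small value, so values compare only within 1 member. Nearest to Lox was Col1a1, the alpha-1 chain of type I collagen, at 0.29, followed by Lrrc17 and the thrombospondin gene Thbs1, both at 0.386. Col1a1 stood at 1648, 1389 and 6356 CPM in ISO and 647, 669.9 and 483 CPM in saline. Being nearest to Lox, it shares the high ISO replicate 3 by its selection. Its log2 fold change was 2.38 (SE 0.55, edgeR adjusted p = 0.0584). Nearest to Loxl1 were C1qtnf6 at 0.154, the membrane-bound metalloproteinase gene Mmp14 at 0.156 and the LIM protein gene Csrp2 at 0.169. Nearest to Loxl2 were Soat1, a cholesterol esterification enzyme gene, at 0.106, Armcx2 at 0.108 and the Wnt receptor gene Fzd2 at 0.119. Near to Loxl3 were Arse at 0.0721 and the growth arrest gene Gas1 at 0.0945. Gas1, at 0.88 (edgeR adjusted p = 0.0369), was the only one of the genes named here beside Lox, Loxl1, Loxl2 or Loxl3 that passed the test, and without ISO replicate 3 its adjusted p was 0.068. Nearest to Loxl4 were Abcc9 at 0.0247, Zfhx3 at 0.0293 and Sgta at 0.0299, which are flat profiles. Between members, the value ran from 0.343 for Loxl1 and Loxl2 to 1.28 for Lox and Loxl4. It depends on how much each gene varies, so it does not rank the pairs by likeness.

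Among the substrates of the enzymes, 1 of 11 tested collagen and elastin genes was called higher (1.47% of all tested genes were) and 0 lower, with a median log2 fold change of 1.12 against 0.02 over all tested genes. The called gene was Col3a1, the type III collagen, which stood at 4473, 3892 and 8160 CPM in ISO replicates 1 to 3, against 1559, 1707 and 1229 CPM in saline replicates 1 to 3. It rose by 1.88 (SE 0.30, edgeR adjusted p = 0.0204). Every ISO library lay above every saline library in 6 of the 11, against 14.1% of all tested genes. The elastin gene Eln, named after its values were seen, went against the pattern of Lox within the ISO group. ISO replicates 1 to 3 held 204, 153 and 89.0 CPM, lowest where Lox was highest, against 126, 96.7 and 73.9 CPM for saline. Its log2 fold change was 0.59 (SE 0.30, edgeR adjusted p = 0.276). Col1a2, the partner chain of Col1a1 in type I collagen and also named after its values were seen, stood at 576, 195 and 860.5 CPM in ISO and 282, 269.9 and 198 CPM in saline. ISO replicate 2 lay below every saline library, so the groups overlapped, and the log2 fold change of Col1a2 was 1.12 (SE 0.45, edgeR adjusted p = 0.184). The count of called substrates was 6 without ISO replicate 2, 4 without ISO replicate 3, and 0 without ISO replicate 1 or any saline replicate. All genes called higher were 3.5% and 1.23% in the fits without ISO replicates 2 and 3, and 0.0427% to 0.0996% in the other 4. The median log2 fold change of the substrates was 1.48 and 0.80 without ISO replicates 2 and 3, and 0.98 to 1.21 in the other 4 fits, which lie around the 1.12 of all libraries.

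Genes that activate or place lysyl oxidases had 3 of 11 tested members higher, against 1.47% of all tested genes, and 0 lower, with a median of 0.72. Postn encodes periostin, which in mice helps to bring the propeptide protease to Lox. It stood at 327, 252 and 2025 CPM in ISO replicates 1 to 3, against 23.3, 12.6 and 13.7 CPM in saline replicates 1 to 3, and rose by 5.71 (SE 0.88, edgeR adjusted p = 0.02). Bmp1, the protease that removes the Lox propeptide, stood at 80, 63.6 and 86.8 CPM in ISO and 44.0, 45.5 and 42.2 CPM in saline, and rose by 0.81 (SE 0.13, edgeR adjusted p = 0.0227). Adamts2, a procollagen protease, rose by 0.72 (SE 0.13, edgeR adjusted p = 0.0327). Bmp1 and Adamts2 were even across the ISO libraries, unlike Postn. Without ISO replicate 3, Postn was at 4.13 and still called (edgeR adjusted p = 0.00109), Bmp1 at 0.71 was still called (edgeR adjusted p = 0.0371) and Adamts2 at 0.64 was not (edgeR adjusted p = 0.0557). None of the 3 was called without ISO replicate 1 or without a saline replicate, fits that called 0.0427% to 0.0996% of genes higher. Their log2 fold changes there were 5.55 to 6.09 for Postn, 0.77 to 0.83 for Bmp1 and 0.68 to 0.76 for Adamts2.

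The enzymes that prepare collagen lysines, with other crosslinking enzymes, had 1 of 14 tested members higher (background 1.47%) and 0 lower, with a median of 0.32. P3h3, which acts in a complex with the lysyl hydroxylase of the collagen helix, stood at 52.4, 38.4 and 57.8 CPM in ISO and 26.4, 28.7 and 29.4 CPM in saline, and rose by 0.82 (SE 0.16, edgeR adjusted p = 0.0362). Plod2, the hydroxylase of collagen telopeptide lysines and named after its values were seen, had the same outlying library as Lox, at 42.5, 42.3 and 135.6 CPM in ISO and 26.9, 33.5 and 22.7 CPM in saline. Its log2 fold change was 1.41 (SE 0.44, edgeR adjusted p = 0.112). In copper supply, 1 of 11 tested members was higher (background 1.47%) and 0 lower, with a median of 0.38. The member was Mt2A, a copper- and zinc-binding metallothionein gene, at 7.96, 7.30 and 11.8 CPM in ISO and 3.47, 1.56 and 2.78 CPM in saline. It rose by 1.80 (SE 0.33, edgeR adjusted p = 0.0327). Atp7a, the pump that loads copper into secreted enzymes and named after its values were seen, was at 0.33 (SE 0.18, edgeR adjusted p = 0.298). P3h3 and Mt2A were called without ISO replicate 2 but not without any other library. Outside the family, the copper amine oxidase gene Aoc3 stood at 101, 87.9 and 107 CPM in ISO and 68.3, 94.2 and 77.5 CPM in saline. It did not pass the test (0.30, SE 0.14, edgeR adjusted p = 0.247) and was the 1 tested gene of its list.

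The list of transcriptional inputs of the family also held Snai1, Snai2 and Ccn2, which are not counted as inputs here. Of its 18 tested genes, 1 was higher and 1 lower, against 1.47% and 1.5% of all tested genes, with a median of 0.14. Tgfb3, a TGF-beta ligand, stood at 129.5, 78.1 and 132 CPM in ISO and 50.2, 55.6 and 43.2 CPM in saline, and rose by 1.19 (SE 0.21, edgeR adjusted p = 0.0281). Srf, serum response factor, stood at 71.7, 84.6 and 64.8 CPM in ISO and 145, 116 and 125 CPM in saline, and fell by 0.81 (SE 0.14, edgeR adjusted p = 0.026). Neither gene stood apart in ISO replicate 3 in the way that Lox did. Both were still called without ISO replicate 2 or ISO replicate 3, at 1.39 and 1.07 for Tgfb3 and −0.92 and −0.72 for Srf, and neither without ISO replicate 1 or a saline replicate. The fits without ISO replicates 2 and 3 called 2.46% and 0.889% of genes lower. Hif1a, the hypoxia factor and named after its values were seen, was at −0.29 (SE 0.13, edgeR adjusted p = 0.213).

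**Figure D4:**
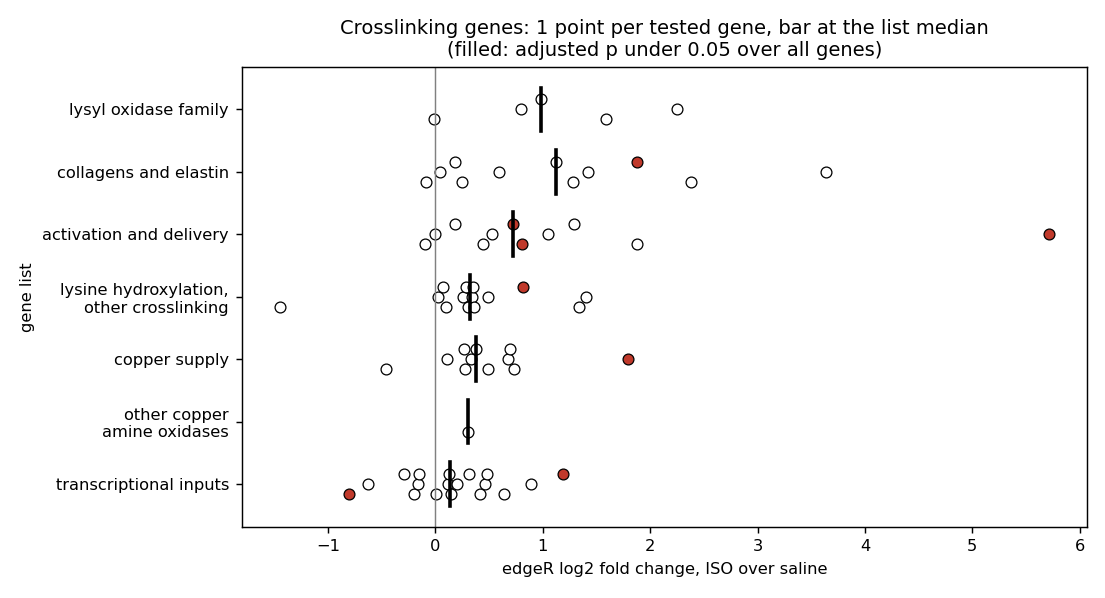
edgeR log2 fold change of ISO over saline for every tested gene of the family and of 6 gene lists around it; vertical bars are list medians and filled points passed an adjusted p of 0.05 over all genes. The medians are 0.98 for the family, 1.12 for collagens and elastin, and 0.14 for transcriptional inputs, a list that also holds Snai1, Snai2 and Ccn2.

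Markers of several cell types differed between the same libraries, and their calls are read against 1.47% of tested genes called higher and 1.5% lower. Fibroblast markers had 2 of 8 called higher (Dpt and Pi16), and their summed level was 4928 to 5108 CPM in ISO and 3119 to 3604 CPM in saline. The members of that list, like those of the marker lists that follow, are named after their values were seen, and they did not share 1 pattern. Gsn, the most abundant, stood at 2437, 3037 and 2130 CPM in ISO replicates 1 to 3 and was lowest in ISO replicate 3. Lum, at 476, 317.5 and 896 CPM in ISO and 187, 228 and 151.5 CPM in saline, was highest there, as Lox was. Col15a1 lay below saline in every ISO library, a pattern that 14.6% of all tested genes had. It stood at 69.7, 47.5 and 28.8 CPM in ISO and 105, 107 and 120.4 CPM in saline (log2 fold change −1.19, edgeR adjusted p = 0.0568).

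Activated fibroblast markers had 2 of 6 called higher, Cthrc1 and Postn, and Postn is also a member of the activation list above. Their sum was 373, 286 and 2422 CPM in ISO replicates 1 to 3 and 27.8 to 43.2 CPM in saline. In each ISO library most of the sum was Postn. Cthrc1, Fap and Tnc were also highest in ISO replicate 3. Comp, at 3.445, 0.748 and 1.17 CPM in ISO and 3.68, 0.25 and 0.126 CPM in saline, and Meox1, at 6.89, 1.87 and 1.52 CPM in ISO and 3.34, 1.88 and 1.77 CPM in saline, were highest in ISO replicate 1 and overlapped between groups. Macrophage markers had 3 of 7 called higher, with sums of 378 to 665 CPM in ISO and 216 to 263 CPM in saline. All 7 had every ISO library above saline, a pattern that 14.1% of all tested genes had. Cardiomyocyte markers had 0 of 7 higher and 1 lower (Actc1), with sums of 26646 to 38865 CPM in ISO and 42090.2 to 53602 CPM in saline. Most of each sum was Myh6 and Actc1, so the sums do not stand for the whole list. The list was uneven. Actc1 at 0.441-fold and Ryr2 at 0.726-fold lay below saline without overlap, a pattern that 14.6% of all tested genes had. Myh6 (0.675-fold), Myl2 (0.671-fold), Tnnt2 (1.05-fold), Tnni3 (1.01-fold) and Actn2 (0.989-fold) overlapped between groups. Without ISO replicate 1, 2 or 3, edgeR called 0, 4 and 1 fibroblast, 0, 3 and 3 activated fibroblast and 1, 6 and 4 macrophage markers higher. Those fits called 0.0645%, 3.5% and 1.23% of all genes higher. Without ISO replicate 3, edgeR also called 1 fibroblast marker lower, in a fit that called 0.889% of genes lower. Without a saline replicate edgeR called 0 of each list, in fits that called hardly any gene, as given for Loxl1.

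Smooth muscle markers had 0 of 6 and endothelial markers 0 of 5 called, and their sums overlapped between groups. Atrial markers summed to 189 CPM in ISO replicate 1 and to 2.22 to 4.18 CPM in the other libraries. Myl7 was at 0 counts in ISO replicate 3. The libraries were thus not alike in atrial markers, and how much atrium each sample held was not tested. Mesothelial, T cell and adipocyte sums overlapped between groups, and no tested gene of these lists was called. The part of any of these cell types in the family's values was not tested, and in whole tissue fewer cells of a type and less RNA per cell cannot be told apart.

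Libraries held 14880391 to 17299589 counts. ISO replicate 3 lay farthest from saline on the first principal component (40.7% of the variance), at 49.1, against 28.8 and 7.56 for ISO replicates 1 and 2 and −31.2 to −25.9 for saline. Over all genes, 203 were called higher and 206 lower with all 6 libraries, and 171 and 124 without ISO replicate 3.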

How the data were processed

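Total RNA from rat heart was measured by RNA-seq in 6 libraries, 1 per rat, placed in their groups by the sample titles. Per the series description, paired 150 bp reads were aligned by the authors with HISAT2 to the rat reference and summarised with featureCounts. That description speaks of FPKM, but the deposited table holds whole-number read counts that are not normalised. For the aligner and counter no version or strand setting is stated in the labels, and the submitters' processing notes list mm10, whereas named rows carry rat Ensembl identifiers. No coordinates were taken from the counts.

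Of 33889 rows, 1006 without a gene name (0.981% to 1.32% of a library's counts) were left out. Where a symbol repeats, the row with the most counts stands for it. No 2 libraries agreed within counting noise.

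Differences were tested across all genes with edgeR 4.0.16 (R 4.3.3; quasi-likelihood F test, TMM scaling, default filter on low counts, Benjamini-Hochberg adjustment, calls at an adjusted p under 0.05). A log2 fold change sets ISO over saline, and its SE was derived from the F statistic. CPM are TMM-scaled; log2 CPM used a prior count of 2. Alternatives were DESeq2 1.42.0, limma 3.58.1 (voom), other scaling and filters, the thresholds of the series on the edgeR fit, a replicate block and each library left out. The same alternatives for other named genes and for marker counts were added after seeing the data. Exact permutation tests used SciPy 1.17.1. The edgeR, DESeq2 and voom steps were run on simulated data with the same dispersion for every gene in both groups. That simulation does not cover a group with an outlying library, such as ISO replicate 3 for Lox.

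Genes named were the members, the called genes of each list by smallest p (up to 3, or the 2 most abundant where none was called) and the 3 nearest patterns per member, of which 1 gene is not reported here; others are marked. The members and lists were chosen with earlier results of these data known. Symbols Pcolce2, Aoc2, Mrtfb and Pecam1 were not matched and are not analysed here.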

Additional observations from a re-analysis of the deposited data

How the results depend on the processing

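Lox, Loxl1, Loxl2 and Loxl3 kept a positive log2 fold change in all 14 alternatives run for each. Every ISO library lay above every saline library for these members, so leaving out 1 library could hardly reverse the sign. The thresholds of the series reuse the edgeR fit and its fold changes. The 14 are thus not separate checks of the sign. An adjusted p under 0.05 was reached in some alternatives by Loxl1, Loxl2 and Loxl3, and in none by Lox, whose lowest was 0.0542. Leaving out each library in turn gave 0.747 to 2.66 for Lox, 0.945 to 1.85 for Loxl1, 0.332 to 1.26 for Loxl2, 0.64 to 1.04 for Loxl3 and −0.0649 to 0.0292 for Loxl4, with 0 to 1 members called higher. Loxl4 changed sign without scaling (0.0958), without ISO replicate 3 (0.0292), without saline replicate 1 (0.00399) and without saline replicate 3 (0.0249). Without a filter on low counts, Loxl1 at 1.58 was called and 322 genes were called higher. DESeq2 called Loxl1 (1.58), Loxl2 (0.977) and Loxl3 (0.795), so 3 members, among 752 higher and 653 lower genes. The thresholds of the series, on the edgeR fit, counted 4 members, Lox (2.25), Loxl1 (1.59), Loxl2 (0.982) and Loxl3 (0.795), among 1193 higher and 619 lower genes. Without scaling, 123 genes were lower and 280 higher, and the median of all genes moved to 0.129 (0.0207 with TMM). The cause of these moves was not tested.

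Leaving out a library moved the genes called higher between 6 and 492 and the genes called lower between 5 and 346. Of 12 other genes named in the text that were called with all libraries, 12 kept their call without ISO replicate 2, 7 without ISO replicate 3, 11 under voom (Cthrc1 was lost, adjusted p = 0.217) and 0 without ISO replicate 1, without any saline replicate or with the replicate block. The replicate numbers were not found to pair the samples: same-numbered libraries deviated with correlations of 0.0874, −0.0989 and 0.0176, and 2 of 6 libraries correlated best with their own number. With the replicate number as a block, 15 genes were higher and 13 lower, no member was called, and Lox, Loxl1, Loxl2, Loxl3 and Loxl4 stood at 1.59, 1.43, 0.81, 0.82 and −0.01. Counting error is largest for Loxl4, at 65 to 73 counts a library.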
